A study of Mus musculus with 13 samples.

Results

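The sites described here are those bound by CTCF or by the cohesin subunit RAD21 in limbs of mouse embryos homozygous for delHoxd(8-13)rXII, an engineered allele that removes the Hoxd8 to Hoxd13 part of the HoxD gene cluster. The authors' CTCF and RAD21 peak lists were compared across the genome and at HoxD: peaks of each list were merged where they overlapped, the lists were joined where they shared at least 1 bp, and each merged interval was called joint, CTCF-only or RAD21-only. The mutant lists held 36116 CTCF and 15927 RAD21 peaks, of 457888 peaks in the 11 lists of the series used here, and gave 37589 merged intervals. Of these, 14185 were joint (37.7%, Wilson 95% interval 37.2 to 38.2), 21684 were CTCF-only (57.7%, 57.2 to 58.2) and 1720 were RAD21-only (4.58%, 4.37 to 4.79).

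The study profiled CTCF and cohesin by chromatin immunoprecipitation and sequencing (ChIP-seq) in E12.5 limbs of wild-type embryos and of embryos with serial deletions at HoxD, to examine a boundary between topological domains. The mutant CTCF library came from whole forelimbs of 4 embryos and was made by ChIPmentation, in which the Tn5 transposase adds adapters to chromatin on the beads. The mutant RAD21 library came from whole forelimbs and hindlimbs by ordinary ChIP-seq on sonicated chromatin. Both were of strain B6CBAF1 and came from crosses of heterozygous mice. The wild-type whole-limb CTCF and RAD21 lists, used as the comparison, were of the same strain and from forelimbs and hindlimbs by ordinary ChIP-seq. Wild-type distal forelimb CTCF, RAD21 and SMC1 (another cohesin subunit) lists and a proximal forelimb CTCF list came from strain CD1. CTCF lists of 3 further HoxD alleles on B6CBAF1, delHoxd(8-13)d11lac, delHoxd(1-13)d9lac and delHoxd(attP-rel5)d9lac, came from whole forelimbs and hindlimbs. Every list stands for 1 library, so no difference below was tested between replicates. The intervals printed cover counting error only, and read depth is unknown because peak lists hold no counts. Antibody, library method and limb tissue all differ between the 2 mutant libraries and cannot be told apart. Fixation may differ too. Per the labels it was 10 or 25 minutes for the mutant and wild-type whole-limb RAD21 libraries and 10 minutes for the wild-type whole-limb CTCF library. For the mutant CTCF library it is not given. Between mutant and wild type, the genotype cannot be told apart from the library. For CTCF, and so for the classes, it cannot be told apart from library method and limb tissue either.

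CTCF recognises a long DNA motif through its zinc fingers, and the motif has a direction. Cohesin is a ring complex that moves along chromatin and extrudes loops until it meets CTCF, which stops it best when the motif faces the advancing ring, so that loops tend to be held between motifs that point towards each other. In the limb, HoxD genes contact enhancers in a centromeric or a telomeric regulatory landscape, and CTCF sites in the cluster lie at the border between them.

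The following stretches are shown because the description of the 3 classes turns on them. Each is from the RefSeq mouse genome, build GRCm38 (mm10), written 5′ to 3′ along the motif, with the best match to the CTCF matrix in capitals. The first 3 are the strongest joint sites near HoxD by RAD21, the next are RAD21-only sites that hold a CTCF motif, and the last are strong CTCF-only promoters.
Joint site telomeric of HoxD, chr2:75588733-75588813, minus strand: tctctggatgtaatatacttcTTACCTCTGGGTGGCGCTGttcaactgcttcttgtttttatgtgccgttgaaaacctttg
Joint site in Hoxd3 and Hoxd4, chr2:74715897-74715977, plus strand: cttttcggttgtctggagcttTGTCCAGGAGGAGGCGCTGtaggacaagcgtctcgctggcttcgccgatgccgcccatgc
Joint site centromeric of HoxD, chr2:74066800-74066880, plus strand: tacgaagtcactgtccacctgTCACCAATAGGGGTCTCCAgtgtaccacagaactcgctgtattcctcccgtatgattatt
RAD21-only site near Chn1, chr2:73792400-73792480, plus strand: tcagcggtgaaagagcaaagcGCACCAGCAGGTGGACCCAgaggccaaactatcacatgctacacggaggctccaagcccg
RAD21-only site near Slc17a6, chr7:51618103-51618183, plus strand: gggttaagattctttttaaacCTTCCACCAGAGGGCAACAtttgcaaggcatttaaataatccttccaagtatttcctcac
CTCF-only site at the Nipsnap2 promoter, chr5:129724952-129725032, minus strand: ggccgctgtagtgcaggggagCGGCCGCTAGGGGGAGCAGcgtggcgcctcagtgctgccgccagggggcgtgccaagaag
CTCF-only site at the Pik3r2 promoter, chr8:70769511-70769591, minus strand: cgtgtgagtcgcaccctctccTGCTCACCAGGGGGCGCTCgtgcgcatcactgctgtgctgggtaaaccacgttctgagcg

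In the first stretch the strongest RAD21 summit lay 20 bp downstream of the motif's centre, in the second 22 bp and in the third 36 bp. At the RAD21-only sites near Chn1 and Slc17a6 it lay 4 and 20 bp downstream. In all 5 of these chosen stretches the RAD21 summit was thus downstream of the motif's centre; shares over all sites are given with the summit positions.

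The next stretches are shown because they carry RAD21 in the mutant without a match to the CTCF motif. They are transfer RNA (tRNA) genes beside promoters of protein-coding genes. The gene is in capitals with 15 flanking bases on each side, 5′ to 3′ along the gene. tRNA genes are transcribed by RNA polymerase III, whose factor TFIIIC binds the B box inside the gene.
n-TSgct7 near Knl1, chr2:119046735-119046846, minus strand: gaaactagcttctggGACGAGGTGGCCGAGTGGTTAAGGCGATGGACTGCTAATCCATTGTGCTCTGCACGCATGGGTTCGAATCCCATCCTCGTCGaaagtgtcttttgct
n-TVaac8 near Mynn, chr3:30601255-30601357, plus strand: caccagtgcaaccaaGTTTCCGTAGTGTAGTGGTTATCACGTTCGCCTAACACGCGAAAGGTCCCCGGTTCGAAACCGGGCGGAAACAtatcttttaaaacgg
n-TRacg6 near Prmt5, chr14:54517681-54517783, plus strand: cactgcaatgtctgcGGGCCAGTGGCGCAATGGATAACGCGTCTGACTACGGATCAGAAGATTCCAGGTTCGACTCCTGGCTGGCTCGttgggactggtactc

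The letters GTTCGANTC, the core of the B box, were searched. They occur in n-TSgct7 from position 62 of the gene, as GTTCGAATC, and in n-TRacg6 from position 53, as GTTCGACTC; in n-TVaac8 the exact letters are not present. The RAD21 summit lay at position 24 of n-TSgct7 and at position 39 of n-TRacg6. For n-TVaac8 it lay at position -23 on the same count, outside the gene on the upstream side.

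Cohesin in the mutant limbs lay mostly where CTCF also lay, while most CTCF sites had no RAD21 peak. Of the mutant RAD21 peaks, 14207 of 15927 overlapped a CTCF peak (89.2%, 88.7 to 89.7), against 66.4% (65.9 to 66.9) of 33707 wild-type RAD21 peaks. Of the mutant CTCF peaks, 14432 of 36116 overlapped a RAD21 peak (40.0%, 39.5 to 40.5), against 51.5% (51.0 to 52.0) of 43533 wild-type CTCF peaks. List length bears on both shares. With the wild-type lists cut to their strongest peaks at the mutant lists' lengths, the wild-type shares were 95.3% for RAD21 peaks and 42.1% for CTCF peaks, so the RAD21 share was then lower in the mutant than in wild type. With both mutant lists cut to −log10 q of at least 10, the shares were 64.1% of RAD21 peaks and 52.1% of CTCF peaks, and RAD21-only intervals then numbered 3643.

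Overlap followed peak strength, measured as the authors' −log10 q, which is used here to rank peaks within a list. In the weakest decile of the mutant CTCF list 8.67% of peaks had RAD21 (7.79 to 9.63), and in the strongest decile 80.4% (79.1 to 81.7). The wild-type CTCF list ran between 11.6% and 92.4% over its deciles. In the mutant RAD21 list, 61.2% (58.8 to 63.6) of the weakest decile and 99.4% (98.8 to 99.7) of the strongest had CTCF. The weakest decile of the longer wild-type RAD21 list had CTCF at 8.48%, and its strongest at 99.9%. Every step from one decile to the next was upward in all 4 lists.

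**Figure D1:**
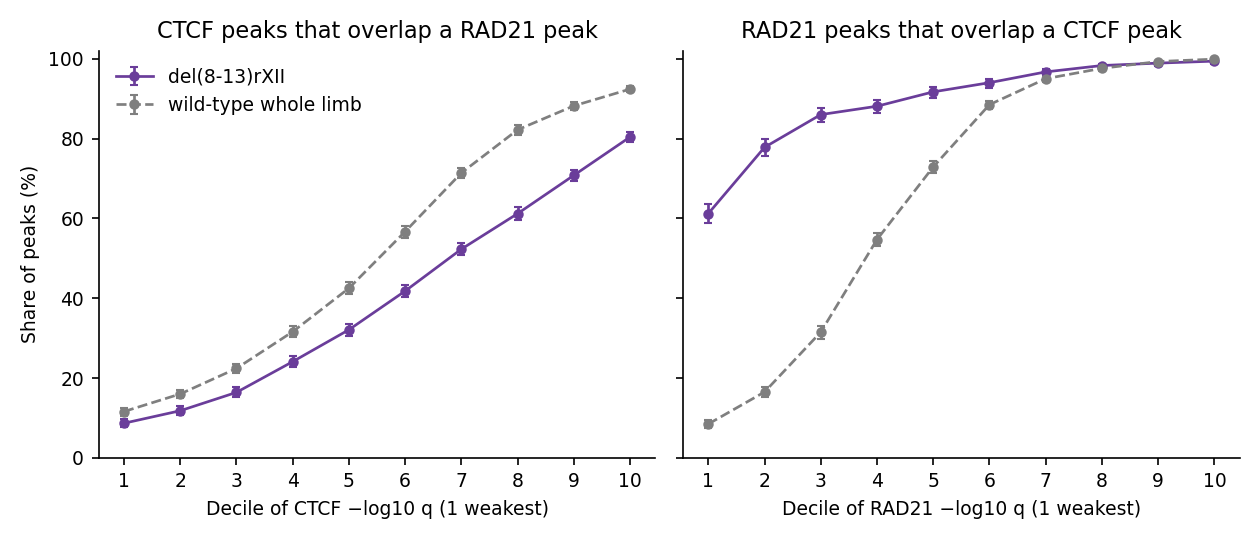
Share of peaks (%) that overlap a peak of the other antibody, by decile of the list's −log10 q (1 weakest), for del(8-13)rXII and wild-type whole-limb lists, with CTCF peaks on the left and RAD21 peaks on the right; bars are Wilson 95% intervals. The mutant CTCF curve runs from 8.67% to 80.4%, and the mutant RAD21 curve from 61.2% to 99.4%.

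The median CTCF −log10 q was 11.8 at joint and 4.88 at CTCF-only intervals, and the median RAD21 −log10 q was 15.9 at joint and 5.85 at RAD21-only intervals. Within the 14185 joint intervals the strengths of the antibodies were only loosely related across sites (Spearman 0.338, against 0.464 over 22354 wild-type joint intervals; sites are not independent replicates). Nearly all joint intervals, 98.3%, held 1 peak of each antibody.

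Other libraries, which the classes did not use, were then read at the same sites. They were wild-type, except that the other CTCF lists also include those of the further HoxD alleles. Of joint intervals, 99.5% had a wild-type whole-limb RAD21 peak, 91.9% a distal forelimb SMC1 peak, and 96.7% a CTCF peak in all 6 other CTCF lists. Of CTCF-only intervals, 93.7% had CTCF in another list and 31.6% had wild-type RAD21. Of RAD21-only intervals, 68.0% had wild-type RAD21 and 57.7% (993 of 1720) had CTCF in at least 1 other list. Where a wild-type RAD21 peak was present, its median −log10 q was 52.4 at mutant joint, 10.5 at CTCF-only and 18.3 at RAD21-only intervals. The median wild-type CTCF −log10 q was 45.6 at joint, 18.7 at CTCF-only and 9.01 at RAD21-only intervals. The mutant classes therefore differed in wild-type strength too: a CTCF-only site tended to have a weak or absent wild-type cohesin peak, and a RAD21-only site a weak or absent wild-type CTCF peak. Of the 22354 wild-type joint intervals, 62.3% were joint in the mutant, 27.7% CTCF-only, 2.60% RAD21-only and 7.38% without a peak.

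CTCF-only sites were set nearer to genes than joint sites. Within 1 kb of a protein-coding transcription start site (TSS) lay 7.0% of joint intervals (993, 6.59 to 7.43), 11% of CTCF-only intervals (2396, 10.6 to 11.5) and 11% of RAD21-only intervals (189, 9.60 to 12.6). The share in introns was 40.5% of joint, 44.3% of CTCF-only and 35.6% of RAD21-only intervals, and the intergenic share was 45.9% of joint, 38.0% of CTCF-only and 49.2% of RAD21-only intervals. Median distances to the nearest TSS were 22236 bp for joint, 18156 bp for CTCF-only and 32291 bp for RAD21-only intervals. With −log10 q of at least 10 required in both lists, promoter shares were 6.25% of joint (5.69 to 6.87), 14.7% of CTCF-only and 5.27% of RAD21-only intervals (4.59 to 6.04). The RAD21-only share was then no longer above the joint share, and their 95% intervals overlapped. At that cut the RAD21-only class also takes in sites whose CTCF peak is below 10. In wild type, promoters took 9.71% of joint, 10.7% of CTCF-only and 13.4% of RAD21-only intervals.

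The excess of promoters among CTCF-only sites was widest at the strongest CTCF peaks. In the strongest decile by mutant CTCF −log10 q, 225 of 2881 joint intervals were at promoters (7.81%, 6.89 to 8.85), against 185 of 705 CTCF-only intervals (26.2%, 23.1 to 29.6). In the weakest decile the shares were 5.98% of joint and 9.02% of CTCF-only intervals, with overlapping 95% intervals. The mutant intervals were also ranked by the wild-type CTCF list, an independent library. This took in only the 13959 of 14185 joint and 17256 of 21684 CTCF-only intervals with a wild-type CTCF peak. In the strongest decile 12.6% of joint (297 of 2360) and 37.8% of CTCF-only intervals (288 of 761, 34.5 to 41.3) were then at promoters. Classes from the wild-type lists gave 14.9% of joint and 45.3% of CTCF-only intervals there. In the weakest decile of the wild-type lists the order was the other way round, with 14.7% of joint (11.8 to 18.2) and 7.23% of CTCF-only intervals (6.46 to 8.09) at promoters. A strong CTCF peak without a RAD21 peak was thus at a promoter more often than a strong CTCF peak with one, in the mutant lists and in the wild-type lists.

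Sites nearest to predicted genes were passed over in the lists of strongest sites that follow, and the strongest CTCF-only interval, at 53.6, was one of them. Of the 10 strongest CTCF-only intervals left, 4 were at promoters. These were Nipsnap2 (39.7 −log10 q, 125 bp from the TSS), Psmd6, a proteasome subunit (35.5), Syt7, a synaptotagmin (35.3), and Pik3r2, a regulatory subunit of phosphoinositide 3-kinase (34.9). The wild-type CTCF list had peaks of 142 at Nipsnap2, 171 at Psmd6 and 157 at Pik3r2. Wild-type RAD21 peaks stood at Nipsnap2 (9.52) and Pik3r2 (26.9), but not at Psmd6 or Syt7. Thus only Pik3r2 of these had a wild-type RAD21 peak above that list's median of 13.6, and Syt7 had no wild-type whole-limb CTCF peak. The others of the 10 were near Nxph1 (49.0), Cyp8b1 (39.4), Tcap (37.1), Lbx1 (35.4), Trpv4 (34.3) and Per3 (34.3). Lbx1 encodes a homeodomain factor of migrating limb muscle precursors, and its site lay 8620 bp from the TSS, with wild-type values of 172 for CTCF and 6.42 for RAD21. The site near Nxph1 had no CTCF peak in any of the 6 other lists. Of the CTCF-only intervals, 1374 (6.34%) likewise had CTCF in the mutant list alone; their median −log10 q was 2.54 and 7.50% held a CTCF motif within 100 bp of the summit, against 69.5% of the remaining CTCF-only intervals.

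The 10 strongest joint intervals by RAD21, predicted genes passed over, were near Rpusd4 (RAD21 328, CTCF 177), Tmem196, Mrgprd, Asmt, Wls, Fgf14, Cr2, Aida, Rab10 and Chl1, with RAD21 −log10 q of 232 to 328. All had peaks in every other CTCF list and in the distal SMC1 list. None held a motif within 100 bp of the summit, and between 13.1% and 83.8% of their bases were repeat-masked, against a median of 9.69% over all joint intervals. The part of repeats in their strength was not tested.

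The CTCF motif was then placed in each class. A matrix of 19 bp was built from wild-type CTCF summits, and a match was a score that 5% of windows 2 kb away passed. Within 50 bp of the CTCF summit a match was present at 50.8% of joint (50.0 to 51.7) and 42.2% of CTCF-only intervals (41.6 to 42.9). RAD21-only intervals have no CTCF summit, and within 50 bp of their RAD21 summit the share was 30.2% (28.1 to 32.4). Within 100 bp of the same summits it was present at 81.4% of joint, 65.6% of CTCF-only and 33.7% of RAD21-only intervals. The gap between joint and CTCF-only intervals was widest at the weakest CTCF peaks. By decile of mutant CTCF −log10 q, 65.0% of joint and 44.8% of CTCF-only intervals held a motif within 100 bp in decile 1. In decile 5 it was 73.2% of joint and 74.0% of CTCF-only. Joint shares were somewhat higher in decile 8 (86.9% against 82.0%) and decile 9 (89.9% against 85.5%). In decile 10 it was 83.7% of joint and 86.2% of CTCF-only. Around the RAD21 summit of joint intervals the share was 82.4% within 50 bp and 90.8% within 100 bp. These are the values to set beside the RAD21-only shares. The RAD21 summit of joint intervals thus marked the motif more closely than the CTCF summit of the ChIPmentation library. In that library 24.6% of peaks had several summits, against 0.866% in the wild-type CTCF list.

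The RAD21 summit was displaced to one side of the motif. At 7212 joint intervals with a motif within 50 bp of the CTCF summit, the RAD21 summit lay a median of 19 bp downstream of the motif centre (interquartile range 6 to 31), and downstream in 81.4% of intervals (80.5 to 82.3). The mutant CTCF summit had a median of 1 bp and was downstream in 50.3%. In wild type, RAD21 summits were at 20 bp with 87.6% downstream, and CTCF summits at 7 bp with 68.7% downstream (n = 20104). The RAD21 displacement was of the same size in the mutant and in wild type, whereas CTCF summits were spread more widely in the mutant list: the median absolute distance was 20.0 bp, against 11 bp in wild type. RAD21-only intervals with a motif within 50 bp of the RAD21 summit (n = 520) had that summit at 16 bp, with 70.6% downstream (66.5 to 74.3). Joint intervals with a motif so placed (n = 11692) had it at 17 bp, with 82.5% downstream (81.8 to 83.2).

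**Figure D2:**
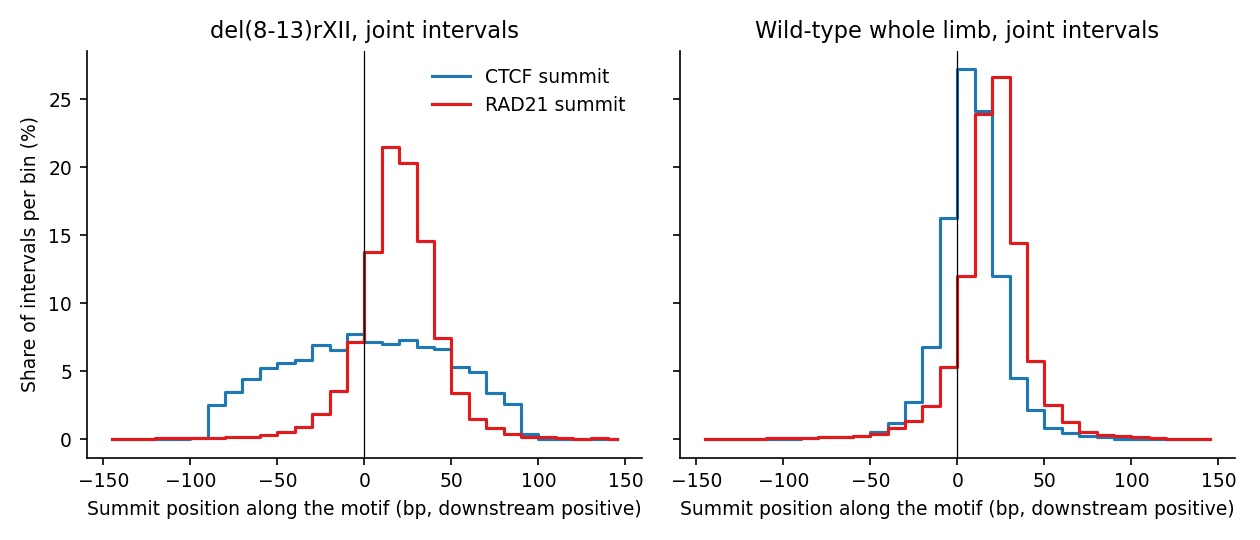
Position of the CTCF and RAD21 summits along the CTCF motif (bp from its centre, downstream positive) at joint intervals with a motif within 100 bp of the CTCF summit, as share of intervals (%) per bin, for del(8-13)rXII on the left (n = 11544) and wild type on the right (n = 20053). The RAD21 summit has its median at 19 bp in the mutant and 20 bp in wild type, and the mutant CTCF summits are spread widest.

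Motif directions of neighbouring joint sites went with the distance between them. Each pair was formed by a joint interval and the next joint interval on the chromosome that held a motif. In the mutant, convergent pairs (motifs facing each other) were a median of 166 kb apart (interquartile range 83.3 to 342, 3151 pairs), and divergent pairs 62.6 kb apart (22.1 to 144, 3148 pairs). Pairs on the same strand had a median gap of 90.5 kb. CTCF-only neighbours showed little of this order, with medians of 75.2 kb for convergent, 69.0 kb for divergent and 70.4 kb for same-strand pairs. Wild-type joint pairs had medians of 103 kb for convergent, 37.4 kb for divergent and 48.1 kb for same-strand pairs. The wild-type lists hold more joint sites, and the part of that in the shorter gaps was not tested. Numbers of convergent and divergent pairs are nearly equal by construction along a chromosome, so the gap, not the count, carries the difference.

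At HoxD itself, the cluster, part of which is deleted, held 2 joint intervals in the mutant, and most wild-type joint sites of the flanks were joint in the mutant. The region from Evx2 to Hoxd1 (chr2:74652991-74765142) held 4 mutant intervals, against 10 in wild type. The joint interval in Hoxd3 and Hoxd4 (chr2:74715703-74716332) had mutant values of 13.0 for CTCF and 52.5 for RAD21, and wild-type values of 53.4 and 159. The joint interval between Evx2 and Hoxd13 (chr2:74663357-74663856) had mutant values of 12.9 and 16.1, and wild-type values of 34.7 and 67.6. In Evx2, which encodes a homeodomain factor next to the cluster, CTCF-only intervals at chr2:74655442-74655718 (7.56) and chr2:74655772-74656176 (5.97) had no mutant RAD21 peak; the first had wild-type peaks of 22.3 for CTCF and 9.52 for RAD21, the second had neither. Of the 10 wild-type cluster intervals, 7 had no mutant peak. Of these, 6 lay between Hoxd13 and Hoxd8, in the part that the allele removes, so no mutant peak could be called there. The other, a wild-type joint site at chr2:74661629-74662200 (11.9 for CTCF and 89.6 for RAD21), lay between Evx2 and Hoxd13, on the Evx2 side of the joint site still present there. The breakpoints of the deletion are not given in the sources used here.

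With 1 Mb on each side, the mutant had 33 intervals at HoxD: 17 joint (51.5%, 35.2 to 67.5), 13 CTCF-only and 3 RAD21-only. Wild type had 48, of which 26 were joint. In the centromeric flank, 7 of 9 wild-type joint sites were joint in the mutant, 1 was CTCF-only and 1 RAD21-only. In the telomeric flank, 8 of 10 were joint, 1 was CTCF-only and 1 RAD21-only. No wild-type joint site of either flank was without a mutant peak. Genome-wide, 62.3% of wild-type joint intervals were joint in the mutant and 7.38% had no peak. The joint share at HoxD, 51.5%, had an interval that contains the genome-wide 37.7%.

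Joint motifs in the flanks faced the cluster. On the centromeric side 5 of 7 mutant joint sites had a plus-strand motif, 1 a minus-strand motif and 1 none. On the telomeric side 6 of 8 had a minus-strand motif, 1 a plus-strand motif and 1 none. CTCF-only sites had no plus-strand motif on either side, with 2 of 4 centromeric and 3 of 7 telomeric sites carrying a minus-strand one. These counts are too small for a share to be precise.

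The strongest RAD21 peak at HoxD was telomeric, at chr2:75588581-75588928, with mutant values of 53.1 for RAD21 and 6.82 for CTCF and wild-type values of 123 and 24.4. The Hoxd3 and Hoxd4 site followed at 52.5. Next was the centromeric site at chr2:74066512-74067033, with 50.8 for RAD21 and 17.7 for CTCF. A telomeric site at chr2:75605521-75606136 had 40.7 and 31.8, and one in the transcript 4930441J16Rik at chr2:74300259-74300786 had 39.7 and 6.32. The strongest CTCF-only site lay at chr2:75152476-75152866, in introns of long transcripts of the telomeric landscape, with 14.6 in the mutant and wild-type values of 32.7 for CTCF and 4.85 for RAD21. Beside those in Evx2, the next were at chr2:74042536-74042634 (6.82), without a wild-type whole-limb peak, and at chr2:75150988-75151236 (5.63). The 3 RAD21-only sites were weak: 6.23 near Chn1 (chr2:73792310-73792554), 5.72 at chr2:75563679-75563858, and 2.78 at the promoter of Lnpk (chr2:74578923-74579102), which encodes the endoplasmic reticulum protein lunapark. The first and second had wild-type CTCF peaks of 11.5 and 8.73 and CTCF in all 6 other lists; the Lnpk promoter had CTCF in none.

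**Figure D3:**
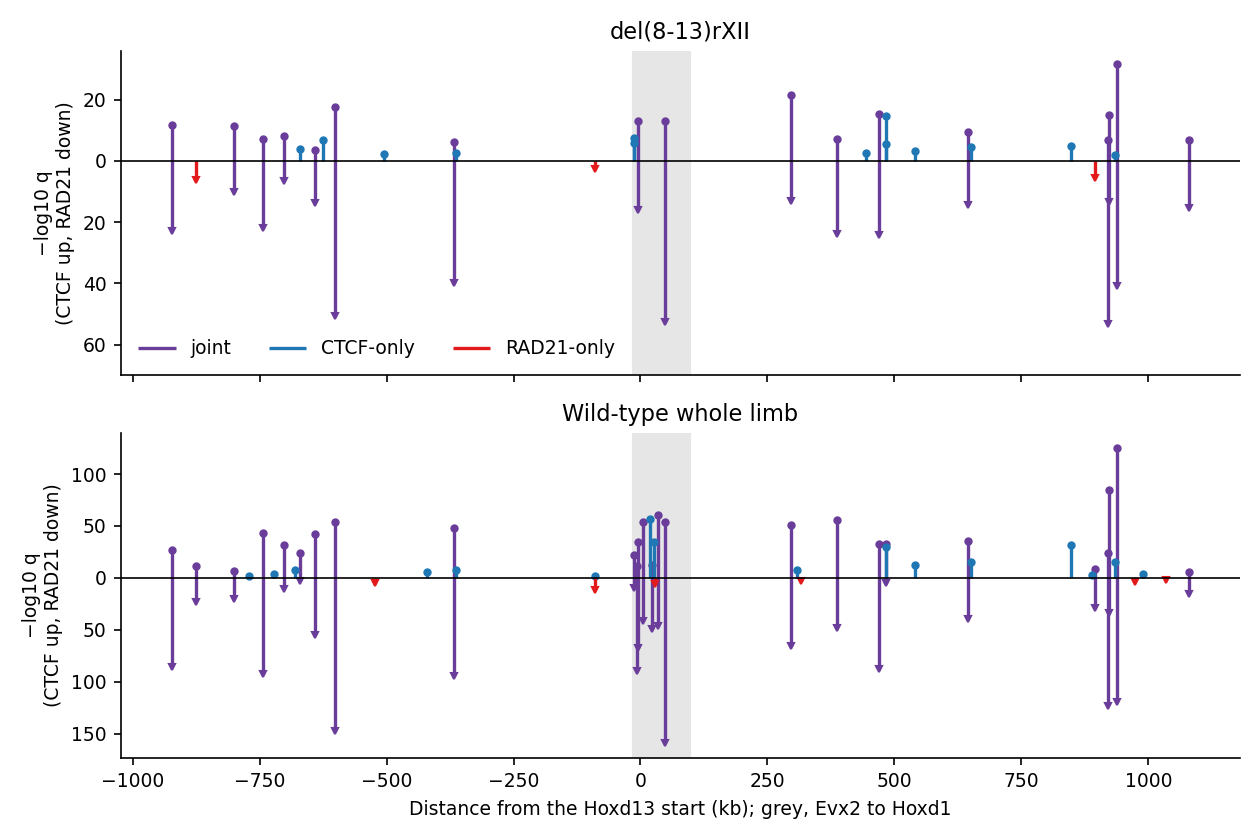
Intervals within 1 Mb of the HoxD cluster by distance from the Hoxd13 start (kb), in del(8-13)rXII above and wild type below, with the CTCF −log10 q drawn upward and the RAD21 −log10 q downward, coloured by class; grey marks Evx2 to Hoxd1, and the vertical scales of the panels differ. In the mutant the cluster, part of which is deleted, holds 4 intervals, against 10 in wild type, while most wild-type joint sites of the flanks are joint in both.

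RAD21-only intervals were of several kinds. For most, the next mutant CTCF peak was far away: its median distance was 19156 bp, and 3.26% had one within 200 bp. The 993 with CTCF in another list had a motif within 50 bp at 50.6% (47.4 to 53.7) and wild-type RAD21 at 93.9%, with a median RAD21 −log10 q of 5.99. Of the 727 with CTCF in none of the 7 lists, 2.48% (18 of 727) held a motif, below the 5% that control windows give. Of those 727, 240 had RAD21 or SMC1 in a wild-type list, and the other 487 had no peak in any of the 9 other lists.

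The last kind was rich among the highest values. It made up 28.3% of RAD21-only intervals but 15 of the 20 strongest and 53 of the 100 strongest. Its median share of repeat-masked bases was 72.5%, against 10.6% at RAD21-only intervals found in another list and 9.69% at joint intervals. Their median GC content was 39.8%, 1.64% were at promoters, and 31 lay on chromosome Y. On the Y, 40 of 81 intervals were RAD21-only. Of the 10 strongest RAD21-only intervals nearest to other than predicted genes, 8 were of this kind: those near Apol8 (94.6), Slc26a5 (86.1), Wnt5a (64.8), Samd3 (56.6), Bmp4 (54.1), Arpp21 (52.3), Chd6 (49.6) and Lsamp (43.3). Wnt5a and Bmp4 encode signals of the limb bud; these sites lay 143052 and 66488 bp from their TSS, and 61.3% and 92.7% of their bases were repeat-masked. Further down among sites beyond 10 kb of a TSS came those near Id2, an inhibitor of basic helix-loop-helix factors (43.3), and Tgif2lx1 (40), also absent from the other lists, and near Pdzrn4 (38.9), which had a wild-type RAD21 peak of 117. All these values come from 1 library, and the part of repeats in these peaks was not tested. Of the other sites among the 10, Tmem143 (67.2) had CTCF in 1 other list and 89.6% masked bases. Slc17a6, which encodes a vesicular glutamate transporter, had 49.5 in the mutant with a plus-strand motif, CTCF in all 6 other lists, and wild-type values of 14.8 for CTCF and 121 for RAD21.

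A group of RAD21-only sites lay on tRNA genes. The pattern was noticed in the sequences of the strongest RAD21-only promoters, so it was chosen after values were seen. A tRNA gene lay within 200 bp of the RAD21 summit at 98 of 1720 RAD21-only intervals (5.70%, 4.70 to 6.90), against 14 of 14185 joint intervals (0.0987%) and, by the CTCF summit, 3 of 21684 CTCF-only intervals (0.0138%). Among the 240 RAD21-only intervals with wild-type cohesin and CTCF in no list, 88 had a tRNA gene (36.7%, 30.8 to 42.9). Of the 20 strongest RAD21-only promoters, predicted genes passed over, 11 were at a tRNA gene.

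Those promoters were of Knl1 (27.6, n-TSgct7), Mynn (24.7, n-TVaac8), Ilf2 (21.8, n-TMcat11), Prmt5 (21.8, n-TRacg6), Agbl5 (20.4, n-TAagc15), Rab11a (15.5, n-TQctg9), Polg (14.8, n-TRtcg5), Fmc1 (14, n-TRcct1), Sacm1l (13.3, n-TRacg2), Ctnna3 (13.0, n-TStga3) and Wbp4 (11.2, n-TEttc4). Knl1 encodes a kinetochore protein, Prmt5 an arginine methyltransferase and Polg the mitochondrial DNA polymerase; the protein-coding genes are named only for their nearness. All 11 had a wild-type RAD21 peak, for example 58.9 at Knl1, 62.7 at Mynn and 58.3 at Prmt5, and none had a wild-type whole-limb CTCF peak, although Ilf2 had CTCF in 5 other lists. The 9 other promoters were of Fanci (30.8), Borcs5 (15.3), Klhl3 (13.8), Stx16 (13.6), Cited2 (13.1), Magee2 (12.4), Sgk1 (12.4), Ccdc107 (11.4) and Sv2c (10.7). Fanci, a gene of interstrand crosslink repair, had no peak in any other list. Borcs5 had wild-type values of 48.7 for CTCF and 61.8 for RAD21, and Sgk1, a stress-induced kinase, 38.9 and 69.7.

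Counted over the 408 tRNA genes of the RefSeq annotation, 106 (26.0%, 22.0 to 30.4) had a mutant RAD21 peak and no mutant CTCF peak within 200 bp. Among 21829 protein-coding genes, read within 200 bp of a TSS and not of the whole gene, the share was 0.705%. A further 23 tRNA genes had both, 5 had CTCF and 274 had neither. In wild type, 162 of the 408 (39.7%) had RAD21 without CTCF. Of the 106 mutant genes, 105 had RAD21 in wild type and 90 had CTCF in none of the 6 other lists. Many tRNA genes are near-identical copies, and how reads with several equal matches were treated is not given in the sources used here, so the assignment to a single copy is uncertain.

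Whether a wild-type tRNA peak was called in the mutant went with its strength. Of the 162, 103 had mutant RAD21, with a wild-type median of 29.2, against 8.72 for the 59 without. At wild-type RAD21-only intervals of −log10 q between 10 and 20, 59.0% with a tRNA gene (23 of 39; 43.4 to 72.9) had a mutant RAD21 peak, against 25.3% without a tRNA gene (209 of 826; 22.5 to 28.4). At 20 to 40 the shares were 87.5% and 72.4%, and at 40 or more 23 of 23 and 98.2%. Counting intervals of tRNA and other sites did not overlap between 10 and 20. Below 10 they did not overlap either (11.8%, 4.67 to 26.6, against 2.36%, 2.08 to 2.67). They overlapped between 20 and 40 and at 40 or more. The tRNA group was noticed in the same mutant RAD21 list that gives these shares, and near-identical copies are not independent sites. Whether tRNA sites kept RAD21 more often than other sites of like strength was therefore not tested.

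The other cohesin lists differed from each other at these sites. Of the 98 RAD21-only intervals at tRNA genes, 97 had wild-type whole-limb RAD21 (99.0%), 84 had distal forelimb RAD21 (85.7%, 77.4 to 91.3) and 1 had distal forelimb SMC1 (1.02%, 0.180 to 5.56). Joint intervals of like RAD21 strength (n = 4494) had distal RAD21 at 82.2% and distal SMC1 at 86.6%. RAD21-only intervals with CTCF in another list and no tRNA gene (n = 984) had 43.8% and 48.8%. RAD21-only intervals with wild-type cohesin, no CTCF list and no tRNA gene (n = 152) had 18.4% and 19.1%. So RAD21 and SMC1 peaks were about as frequent as each other in these sets, but not at tRNA genes. The RAD21 and SMC1 lists differ in antibody, and fixation was 10 or 25 minutes in the RAD21 samples and 25 minutes in the SMC1 sample, per the labels; the part of either in the difference was not tested.

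**Figure D4:**
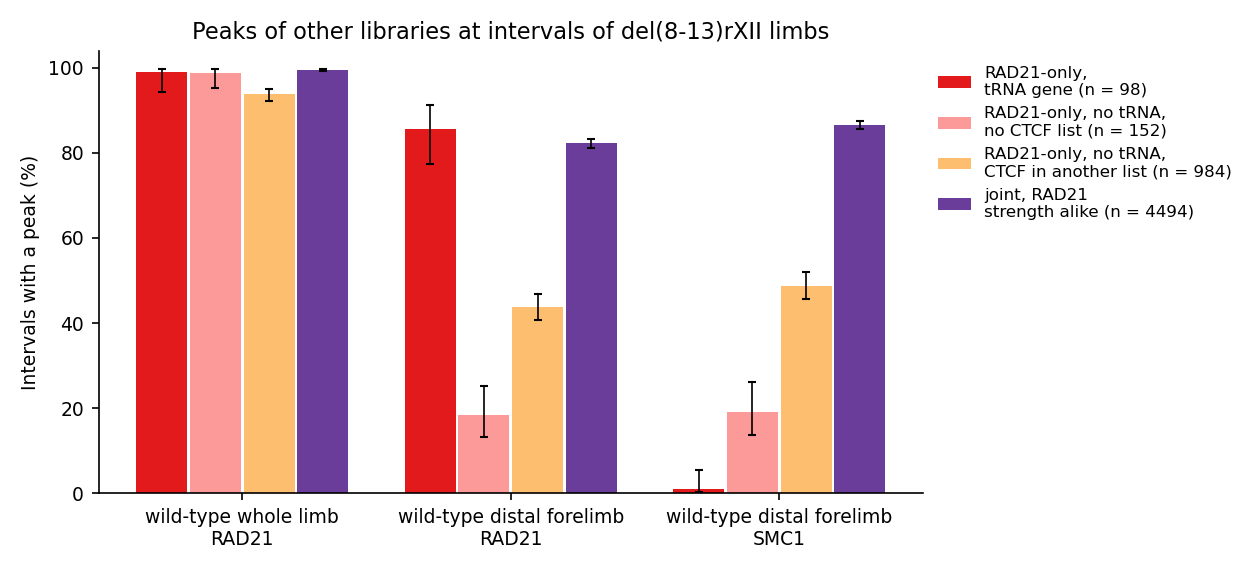
Share of intervals (%) of del(8-13)rXII limbs that have a peak in wild-type whole-limb RAD21, distal forelimb RAD21 and distal forelimb SMC1 lists, for RAD21-only intervals at tRNA genes and 3 other sets; bars start at 0 and whiskers are Wilson 95% intervals. At tRNA genes 85.7% have distal RAD21 and 1.02% distal SMC1.

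Summits lay at the gene body. Of the 106 tRNA genes, 64 (60.4%) had the mutant RAD21 summit inside the gene, and its median position was 20.5 bp from the gene's start, against 17.0 bp in wild type (59.3% inside). The B box letters GTTCGANTC, searched on both strands of 201 bp around the summit, were present at 2.73% (47 of 1720, 2.06 to 3.61) of RAD21-only, 0.120% of joint and 0.203% of CTCF-only intervals. They were present in 0.107% of windows 2 kb beside RAD21 summits and in 0.0920% of windows at all protein-coding TSS. All but 4 of the 47 were among the 240 intervals with wild-type cohesin and CTCF in no list. Of the tRNA genes themselves 40.4% hold these exact letters, so the search misses many B boxes. A CTCF motif was within 100 bp of the summit at 7.14% (7 of 98) of the tRNA intervals. In budding yeast, the cohesin loader and condensin are known to occupy tRNA genes; that is background and not a result of these lists.

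RAD21-only promoters were richer in CpG than the other promoter sites. Over 201 bp at the summit, an observed to expected CpG ratio of at least 0.6 was found at 76.2% of 189 RAD21-only promoter intervals, against 50.1% of joint promoters, 44.7% of CTCF-only promoters and 49.0% of all TSS. It was 86.9% (53 of 61) where CTCF was in none of the 7 lists. A tRNA gene was present at 20 of those 61.

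Gene groups of limb development were read for intervals within 10 kb of a TSS; over all 21829 protein-coding genes, 21.2% had a joint, 33.5% a CTCF-only and 2.45% a RAD21-only interval. Among 28 distal limb patterning genes 15 had a joint, 11 a CTCF-only and none a RAD21-only interval. Dlx5, a homeobox gene of the apical ridge and skeleton, had joint values of 13.2 for CTCF and 57.5 for RAD21. Cyp26b1, which degrades retinoic acid, had 14.3 and 31.6, and Shh, the posterior signal, 2.37 and 3.78. Wnt5a, whose far RAD21-only site is given above, also had a joint site 3079 bp from its TSS, with 13.7 and 30.4.

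Among 18 genes of chondrogenesis and joints, 10 had a joint interval, 8 a CTCF-only and 3 a RAD21-only one. Snai1 had joint values of 9.07 for CTCF and 54.0 for RAD21, the joint signal Gdf5 12.6 and 47.2, the cartilage regulator Sox9 8.82 and 37.4, and the BMP antagonist Nog 32.4 and 29.0. The RAD21-only sites were weak: 3.36 at Sox6, 3.81 at the promoter of Pthlh and 5.38 at that of Runx2, the osteoblast regulator. Among 19 proximal limb and limb identity genes, 8 had a joint, 4 a CTCF-only and 2 a RAD21-only interval. Emx2 had 11.9 and 54.1, Tbx2 15 and 41.9, and Meis1, a proximal homeobox gene, 12.6 and 17.4. The RAD21-only sites were near Irx5 (3.38) and Tbx2 (5.38).

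The Hox clusters were read in the same way. In HoxA 7 of 12 genes had a joint and 8 a CTCF-only interval; the joint site at the Hoxa7 promoter had 18.5 for CTCF and 63.9 for RAD21. In HoxB 6 of 10 had a joint and 8 a CTCF-only interval. In HoxC 6 of 9 had a joint and none a CTCF-only interval, with 12.7 and 43.6 near Hoxc8 and 17.2 and 25.0 near Hoxc10. In HoxD 4 of 10 had a joint interval, 1 a CTCF-only interval and 6 none. The HoxD genes were matched by reference coordinates, although Hoxd8 to Hoxd13 are deleted in the mutant. Neighbouring genes share sites, so these counts are not counts of separate sites, and differences between the clusters were not tested. Of 14 genes of the HoxD landscapes, 3 had a joint interval, 1 a CTCF-only and 1 a RAD21-only one; Sp9, a limb zinc-finger gene, had 16.0 and 66.1.

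Among 20 imprinted genes, 8 had a joint, 8 a CTCF-only and 2 a RAD21-only interval; Mest had joint values of 8.37 and 37.5, and Plagl1 14.9 and 35.0. Among 19 genes of the CTCF and cohesin machinery, 5 had a joint and 7 a CTCF-only interval. Pds5b, a cohesin regulator, had 11 and 37.7, and Nipbl, the cohesin loader, had a CTCF-only peak of 17.8. Of 18 protocadherin genes 1 had a joint interval, 9 a CTCF-only and 4 a RAD21-only one. A joint interval was found at 2 of 14 muscle, 4 of 12 blood, 4 of 12 endothelium, 1 of 10 nerve and glia, 1 of 10 surface ectoderm and 3 of 16 housekeeping genes. Peaks do not measure expression, so these lists say nothing of cell makeup.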

How the data were processed

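ChIP-seq peak lists of E12.5 mouse limbs were used, 1 library per list; 2 H3K27ac samples were not analysed here. Reads were processed with cutadapt, Bowtie2 and MACS2 on mm10, per the submitters' processing notes, which give no versions. Each deposited peak row carries the authors' score, fold enrichment, −log10 p-value and −log10 q-value, and a summit position; only −log10 q and summits were used. The lists reach down to q of 0.05, as their lowest values show. Input, read depth and the treatment of reads with several matches are not given in the sources used here.

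Rows on numbered chromosomes, X and Y were merged within each list, and lists were joined at 1 bp of overlap. Annotation was GENCODE M21 on GRCm38.p6, and tRNA genes were RefSeq's. Python 3.11.15, NumPy 2.4.6, SciPy 1.17.1 and matplotlib 3.10.9 were used, with Wilson intervals at 95% confidence. A promoter lay within 1 kb of a protein-coding TSS, and gene lists used 10 kb. The overlap and motif code was tested on simulated data. The CTCF matrix came from 2000 wild-type summits.

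Named sites were all those in the HoxD cluster, the strongest 5 of each class within 1 Mb, the strongest 10 of each class genome-wide, the strongest 20 RAD21-only promoters, the strongest 10 RAD21-only sites beyond 10 kb of a TSS, and up to 4 genes per list, passing over predicted genes; tRNA genes and single sites outside this rule were chosen after their values were seen. Members and lists were chosen with earlier results of these data known.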

Additional observations from a re-analysis of the deposited data

How the results depend on the processing

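Of 98 alternatives over 42 results, 36 stayed within counting error or 1.5 times the count and 62 moved; none reversed a tested call, since no test was possible with 1 library per group. No paired analysis was possible because each group has 1 library. Requiring −log10 q of at least 10 gave 6510 joint, 6021 CTCF-only and 3643 RAD21-only intervals; 52.1% of CTCF peaks had RAD21 and 64.1% of RAD21 peaks had CTCF. Promoter shares were then 6.25% joint, 14.7% CTCF-only and 5.27% RAD21-only. HoxD with flanks held 9 joint, 1 CTCF-only and 7 RAD21-only, with 0 CTCF-only in the cluster. For the state in wild type, the classes of the full lists were kept and only their intervals of −log10 q of at least 10 were read. Of these, 99.8% of 6510 joint, 55.1% of 3941 CTCF-only and 40.0% of 410 RAD21-only intervals had both antibodies in wild type. Without that limit the shares were 98.0%, 29.5% and 35.7%. Lists of equal length gave 5714 CTCF-only and 5728 RAD21-only intervals, shares of 64.1% of CTCF peaks and 64.0% of RAD21 peaks, and 11 joint, 1 CTCF-only and 9 RAD21-only at HoxD, 0 CTCF-only in the cluster. These cuts drop weak peaks of one list that lie under peaks of the other, so the class counts depend on the threshold.

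Overlap of at least 50% gave shares of 39.2% for CTCF and 88.2% for RAD21 peaks, and summits within 200 bp 39.3% and 88.1%. Another CTCF list in place gave RAD21 shares of 93.0% (del(8-13)d11lac) and 91.8% (wild type). Promoters of 2.5 kb gave 12.1%, 17.0% and 15.2% for joint, CTCF-only and RAD21-only. The motif level of 1% of control windows gave 44.2%, 34.4% and 20.3%, and a 100 bp window 81.4%, 65.6% and 33.7%. RAD21-only motif shares were taken at the RAD21 summit and the others at the CTCF summit. The RAD21 share downstream was 83.6% in both settings. Chosen after seeing the data, peaks with a peak in another list gave 41.4% of CTCF and 92.0% of RAD21 peaks shared and 14.7% RAD21-only promoters; the RAD21 summit gave a joint motif share of 82.4%; wild-type lists at mutant lengths gave 42.1% and 95.3%. At 50 kb, 18 gene groups counted, all genes included, had more joint members.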

Other observations

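A snoRNA gene lay within 200 bp of the summit at 55 of 21684 CTCF-only intervals (0.254%, 0.195 to 0.330), 8 of 14185 joint intervals (0.0564%, 0.0286 to 0.111) and 0 of 1720 RAD21-only intervals, which allows up to 0.223%. snoRNA genes guide the modification of ribosomal RNA and lie mostly in introns of host genes. The intervals of CTCF-only and joint sites do not overlap, but CTCF-only sites are also nearer to genes, and the part of that in the difference was not tested. Chromosome X had a lower joint share than the genome, 25.4% of 1038 intervals, with 712 CTCF-only and 62 RAD21-only.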
